A study of Homo sapiens with 14 samples.

Results

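The transcripts of the lysosome's own enzymes, membrane proteins and delivery machinery were followed as a list of 44 genes among the 63140 genes of the count table. Because the list was chosen with earlier results of these data known, its counts and shares are descriptions. It held 10 hydrolases of sphingolipids with their activators, 8 cathepsins and other proteases, 8 enzymes that degrade glycosaminoglycans, 6 hydrolases of glycogen, glycoproteins, lipids and acyl proteins, 8 membrane proteins and cholesterol transporters, and 4 genes of mannose 6-phosphate sorting. All 44 were found by symbol and all 44 passed the filter on low counts, among 18321 genes tested. RNA came from HEK293T, a line of human embryonic kidney cells that makes SV40 T antigen, and was collected 24 h after a duplex was transfected. The miR-34a-RS group of 4 libraries, numbered 1, 2, 3 and 5, received miR-34a in which guide residues 13 and 14 from the 5′ end had been exchanged for rSpacer, a backbone unit that lacks a base. Unmodified miR-34a was given in the miR-34a-WT group (5 libraries), and AllStars, a negative control siRNA from Qiagen, in the control group (5 libraries). All 14 libraries therefore came from transfected cells of 1 line, and an untransfected group was not analysed here. The design asked what pairing outside the seed contributes to regulation by a microRNA. The labels do not state whether replicates were separate cultures, and p-values here measure the spread among libraries, part of which may be technical.

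Total counts ran from 22.24 to 36.26 M per library. The cell line's labels were checked against 8 genes that HEK293T cells express, KRT8, KRT18, VIM, CDH2, PAX2, NEFM, INA and LIN28B, which were all tested and summed to 643 to 673 CPM with miR-34a-RS, 641 to 694 CPM with miR-34a-WT and 666 to 715 CPM in control. CPM here is a gene's count scaled to the size of its library with TMM factors. Within that sum genes moved both ways against control: NEFM, at -0.40 with miR-34a-RS and -0.47 with miR-34a-WT on the log2 scale, and INA, at -0.64 and -0.70 with the same duplexes, were called lower with both, KRT8 was called higher with miR-34a-RS, at 0.43, and with miR-34a-WT CDH2 and LIN28B were called higher and PAX2 lower. Of 8 fibroblast markers 4 were tested, with sums of 28.8 to 34.9 CPM with miR-34a-RS, 28.2 to 32.7 CPM with miR-34a-WT and 26.5 to 35.8 CPM in control, and COL1A2 had no count in any library. Of these 4, PDGFRA, at -1.41 with miR-34a-RS and -1.58 with miR-34a-WT, and COL3A1, at -0.44 with miR-34a-RS and -0.64 with miR-34a-WT, were called lower, and the part of such shifts in the members' values was not tested. Of 9 blood cell markers 2 were tested, with sums of 3.55 to 3.79 CPM with miR-34a-RS, 2.58 to 3.68 CPM with miR-34a-WT and 2.69 to 3.37 CPM in control.

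Lysosomes are acidic organelles in which soluble hydrolases degrade lipids, sugar chains and proteins. Most of these hydrolases are made in the endoplasmic reticulum, receive a mannose 6-phosphate tag in the Golgi from a phosphotransferase, and are carried to endosomes by receptors for that tag. Glycosylated membrane proteins line the organelle and move ions and cholesterol across its membrane. Many of the genes share a promoter element that binds the transcription factor TFEB and its relatives, which is known as the CLEAR motif and contains an E-box. A microRNA acts on these transcripts, as on others, mainly through pairing of its seed, guide bases 2 to 8, with the 3′ UTR.

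The sequences through which the guide could pair with members are shown first, because they separate the members into those with and without a strong seed match. The guide, taken from the mature miR-34a of RefSeq (GRCh38.p14, chr1:9151735-9151756, minus strand), is printed with its seed in capitals.
miR-34a guide: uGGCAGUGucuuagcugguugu
In the longest annotated 3′ UTR of each gene (GENCODE 29, GRCh38), 9 of the 44 members held an 8mer or 7mer-m8 match, that is CACTGCCA or CACTGCC. Windows are printed for 7 of the 9. Each window of 30 bases, 5′ to 3′ on the transcript's strand, ends 1 base after the partner of guide base 2 and has the match in capitals, with a final capital A where it was an 8mer. A capital AGCT upstream of a match marks the letters that guide bases 13 to 16 could pair with, at 1 to 15 target bases from the match.
SMPD1, chr11:6394338-6394367, plus strand: gaaacctatgggctgcccaacaCACTGCCt
SMPD1, chr11:6394847-6394876, plus strand: atggagtagaggcctaagttgaCACTGCCc
NEU1, chr6:31859704-31859733, minus strand: tatgggacactctgAGCTgtgcCACTGCCA
ARSB, chr5:78779068-78779097, minus strand: ttgtgttcaccaatgcttggaaCACTGCCt
MANBA, a window across an exon junction, minus strand: tggggctctgcaaggcgcagatCACTGCCA
IGF2R, chr6:160108809-160108838, plus strand: agtAGCTgggattaaaggcacgCACTGCCA
SGSH, chr17:80210224-80210253, minus strand: ccagcccctccaccaccaggggCACTGCCg
IDS, chrX:149477367-149477396, minus strand: acggcccaggcaagagggctccCACTGCCA
SMPD1 carried a pair of matches and the others 1 each, those whose windows are not printed included. The AGCT letters stood 4 bases from the match in NEU1 and 15 bases from it in IGF2R, and were not found within range in the other 7.

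Against control, lysosomal members moved both ways, more of them down than up, and the transcript of SMPD1 fell the most. With miR-34a-RS 18 members fell, 4 rose and 22 did not pass an adjusted p of 0.05, and with miR-34a-WT 18 fell, 6 rose and 20 did not pass (edgeR quasi-likelihood F test, Benjamini-Hochberg adjustment across the 18321 genes). Of all tested genes 34.6% were called with miR-34a-RS, 18.4% lower and 16.2% higher, and 40.2% with miR-34a-WT, 21.3% lower and 18.9% higher, so the members called, 50% and 54.5%, stood against a background in which many genes changed. The members' shares called lower were 40.9% with either duplex. All tested genes include many of low count, so these shares are not matched for level. Of the tested genes 11259 had a mean of at least 5 CPM. A fit of genes at that level called 2768 lower and 2540 higher with miR-34a-RS. With miR-34a-WT it called 3152 lower and 2874 higher. The shares lower were thus larger at that level than over all tested genes, and the members' 40.9% stood less far above them. The median log2 fold change of the 44 members was -0.08 with miR-34a-RS and -0.07 with miR-34a-WT, beside -0.01 and -0.02 over all tested genes. The libraries of the 2 groups did not overlap for 20 members (45.5%) with miR-34a-RS and for 17 members (38.6%) with miR-34a-WT, beside 27.0% and 28.9% of all tested genes. Both comparisons use the same 5 control libraries, so their values are given side by side and are not independent.

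The members called lower with both duplexes were 17, namely SMPD1, HEXA, ARSA, NEU1, PSAP, GM2A, CTSA, CTSB, CTSC, CTSD, TPP1, GUSB, ARSB, MANBA, MAN2B1, GNPTAB and IGF2R. The 4 called higher with both were CTSZ, SGSH, LAMP2 and M6PR. GNPTG was called lower, and GALNS and FUCA1 higher, with miR-34a-WT alone, and PPT1 was called lower with miR-34a-RS alone. Without a replicate block none of these 4 was called between the duplexes in edgeR's test at an adjusted p of 0.05. With the block PPT1 was called lower with miR-34a-RS, and GALNS was when the trends with GC content and length of the 3′ UTR were removed as well, at -0.15 (adjusted p = 0.0048). The other 19 did not pass in either comparison, with log2 fold changes from -0.18 to 0.12. Summed over the 44 members, the level was 2930 ± 45.9 CPM with miR-34a-RS (SD, n = 4), 2949 ± 31.5 CPM with miR-34a-WT (SD, n = 5) and 3159 ± 35.9 CPM in control (SD, n = 5). The highest miR-34a library, at 2993 CPM, lay below the lowest control library, at 3112 CPM. In bulk RNA a lower level per cell and fewer cells with the transcript cannot be told apart.

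**Figure D1:**
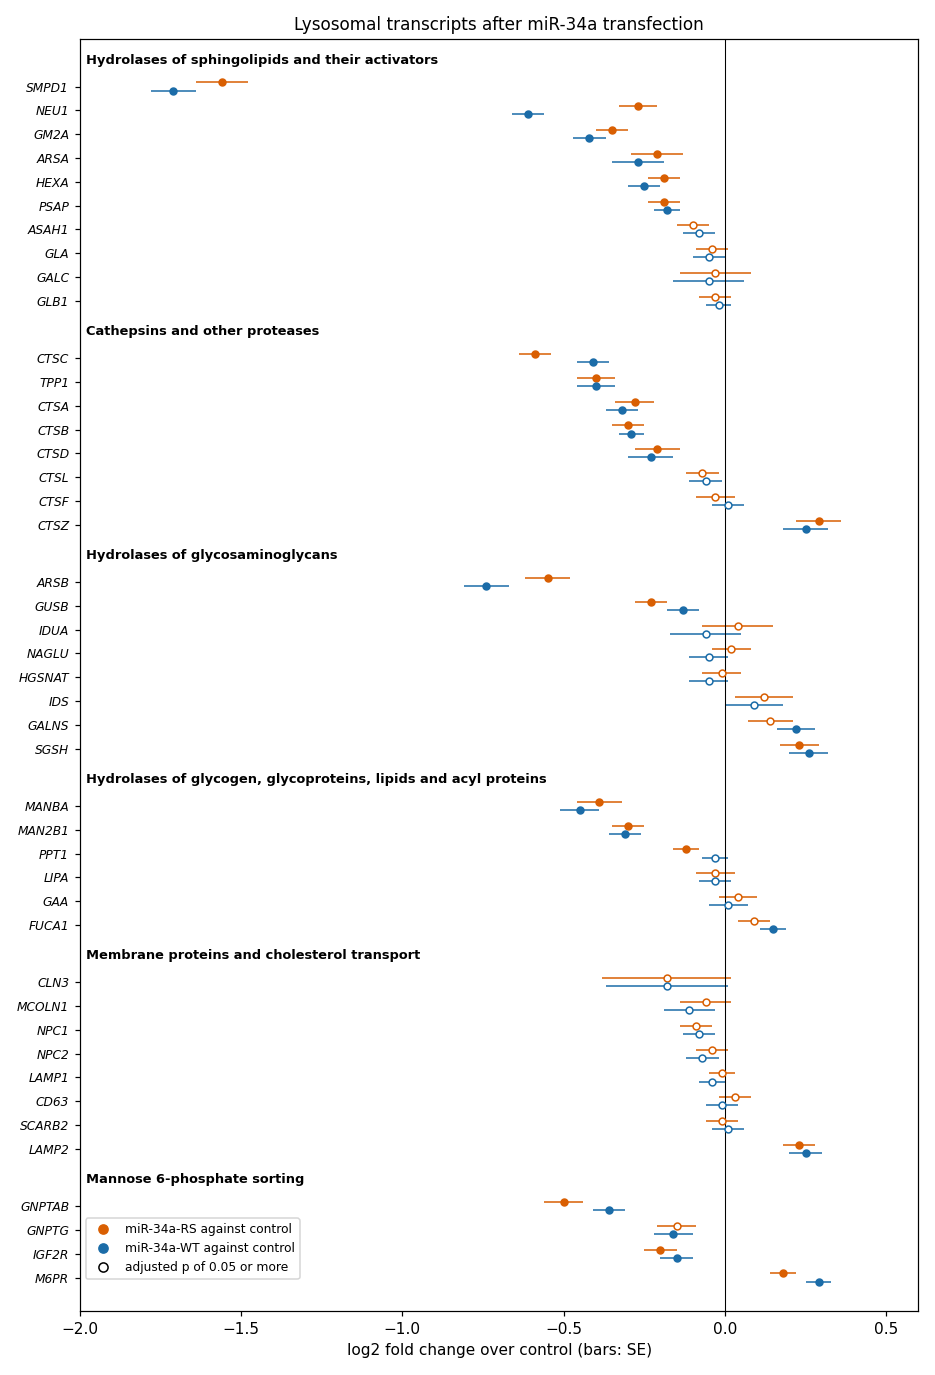
Log2 fold change over control of the 44 members, grouped by role, for miR-34a-RS (4 libraries) and miR-34a-WT (5 libraries) against the same 5 control libraries, with bars of 1 SE and open symbols where the adjusted p was 0.05 or more. SMPD1 stands at -1.56 and -1.71, every other member lies between -0.74 and 0.29, and of the membrane proteins LAMP2 alone is called.

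Among the sphingolipid enzymes and their activators, 6 of 10 fell with each duplex and none rose. SMPD1 (chr11:6390431-6394998, GRCh38) encodes acid sphingomyelinase, which cleaves sphingomyelin to ceramide and is deficient in Niemann-Pick disease types A and B. It had 5.05, 5.12, 5.40 and 5.98 CPM in the miR-34a-RS libraries, 5.69, 4.62, 4.70, 4.76 and 4.54 CPM in the miR-34a-WT libraries and 15.2, 16.1, 16.6, 14.99 and 16.6 CPM in the control libraries. All 9 miR-34a libraries lay below all 5 control libraries. The means were 5.39 ± 0.422 CPM with miR-34a-RS (SD, n = 4), 4.86 ± 0.470 CPM with miR-34a-WT (SD, n = 5) and 15.9 ± 0.749 CPM in control (SD, n = 5), a fold of 0.34 with miR-34a-RS and 0.305 with miR-34a-WT over control. The log2 fold change was -1.56 (SE 0.08) with miR-34a-RS and -1.71 (SE 0.07) with miR-34a-WT (edgeR quasi-likelihood F test, Benjamini-Hochberg adjusted p = 4.96e-14 and 2.07e-15). SMPD1 was the only member below -1 on the log2 scale in either comparison, its pair of 7mer-m8 matches is printed above, and no other gene's exons overlap its own.

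NEU1 (chr6:31857659-31862906) encodes the lysosomal sialidase, which strips sialic acid from glycolipids and glycoproteins and works in a complex with cathepsin A. It had 37.7, 45.3, 45.1 and 46.8 CPM in the miR-34a-RS libraries, 33.95, 36.9, 33.5, 34.7 and 34.4 CPM in the miR-34a-WT libraries and 49.98, 54.1, 51.95, 53.8 and 54.7 CPM in the control libraries. The 3 groups did not overlap, with control highest and miR-34a-WT lowest, although miR-34a-RS replicate 1 came within 1 CPM of the highest miR-34a-WT library. The log2 fold change over control was -0.27 (SE 0.06) with miR-34a-RS and -0.61 (SE 0.05) with miR-34a-WT (edgeR quasi-likelihood F test, Benjamini-Hochberg adjusted p = 0.000374 and 1.18e-09). GM2A, the activator that lifts GM2 ganglioside to the hexosaminidase, had 45.7, 44.8, 42.4 and 40.01 CPM in the miR-34a-RS libraries, 42.4, 41.4, 40.6, 42.2 and 38.5 CPM in the miR-34a-WT libraries and 55.1, 55.2, 58.2, 53.4 and 53.01 CPM in the control libraries. HEXA, the α subunit of that hexosaminidase, had 30.9, 32.3, 31.2 and 32.5 CPM in the miR-34a-RS libraries, 28.5, 29.4, 31.5, 32.3 and 30.01 CPM in the miR-34a-WT libraries and 35.9, 36.6, 34.1, 39.5 and 34.7 CPM in the control libraries. For both genes every miR-34a library was below every control library. The log2 fold change over control of GM2A was -0.35 (SE 0.05) with miR-34a-RS and -0.42 (SE 0.05) with miR-34a-WT, and that of HEXA was -0.19 (SE 0.05) with miR-34a-RS and -0.25 (SE 0.05) with miR-34a-WT.

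PSAP, whose protein is cut into the saposins that assist several sphingolipid hydrolases, had 314, 354, 348 and 350.1 CPM in the miR-34a-RS libraries, 318, 358, 348, 351 and 352 CPM in the miR-34a-WT libraries and 373, 400.2, 381, 384 and 414 CPM in the control libraries. No miR-34a library reached the lowest control library, and replicate 1 was the lowest of both miR-34a groups. Over control, its log2 fold change was -0.19 (SE 0.05) with miR-34a-RS and -0.18 (SE 0.04) with miR-34a-WT. With the trends of each library with GC content and length of the 3′ UTR removed, that with miR-34a-WT was -0.06 and not called (edgeR, adjusted p = 0.0502). ARSA, the sulfatase of sulfatides, had 25.1, 26.2, 30.2 and 30.7 CPM in the miR-34a-RS libraries, 23.7, 26.2, 28.04, 26.4 and 29.8 CPM in the miR-34a-WT libraries and 28.4, 32.7, 29.9, 33.1 and 38.4 CPM in the control libraries. Here the groups overlapped, with control replicate 1 inside the range of the miR-34a libraries and control replicate 5 the highest of all. For ARSA the log2 fold change over control was -0.21 (SE 0.08) with miR-34a-RS and -0.27 (SE 0.08) with miR-34a-WT, and the call with miR-34a-RS was lost when any 1 of 9 libraries was left out (control 2, 3, 4 and 5, miR-34a-RS 1 and 2, miR-34a-WT 2, 3 and 4), at -0.21 to -0.14. It was also lost with DESeq2's test or size factors, with upper-quartile factors and in a fit of the 2 groups alone, at -0.20 to -0.19. Over the 6 called genes the Benjamini-Hochberg adjusted p of the edgeR fit ran from 4.96e-14 to 0.0458 with miR-34a-RS and from 2.07e-15 to 0.00527 with miR-34a-WT. GLA and GLB1, the α- and β-galactosidases, GALC, the galactosylceramidase, and ASAH1, the acid ceramidase, did not pass, with log2 fold changes over control of -0.04, -0.03, -0.03 and -0.10 with miR-34a-RS and -0.05, -0.02, -0.05 and -0.08 with miR-34a-WT.

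**Figure D2:**
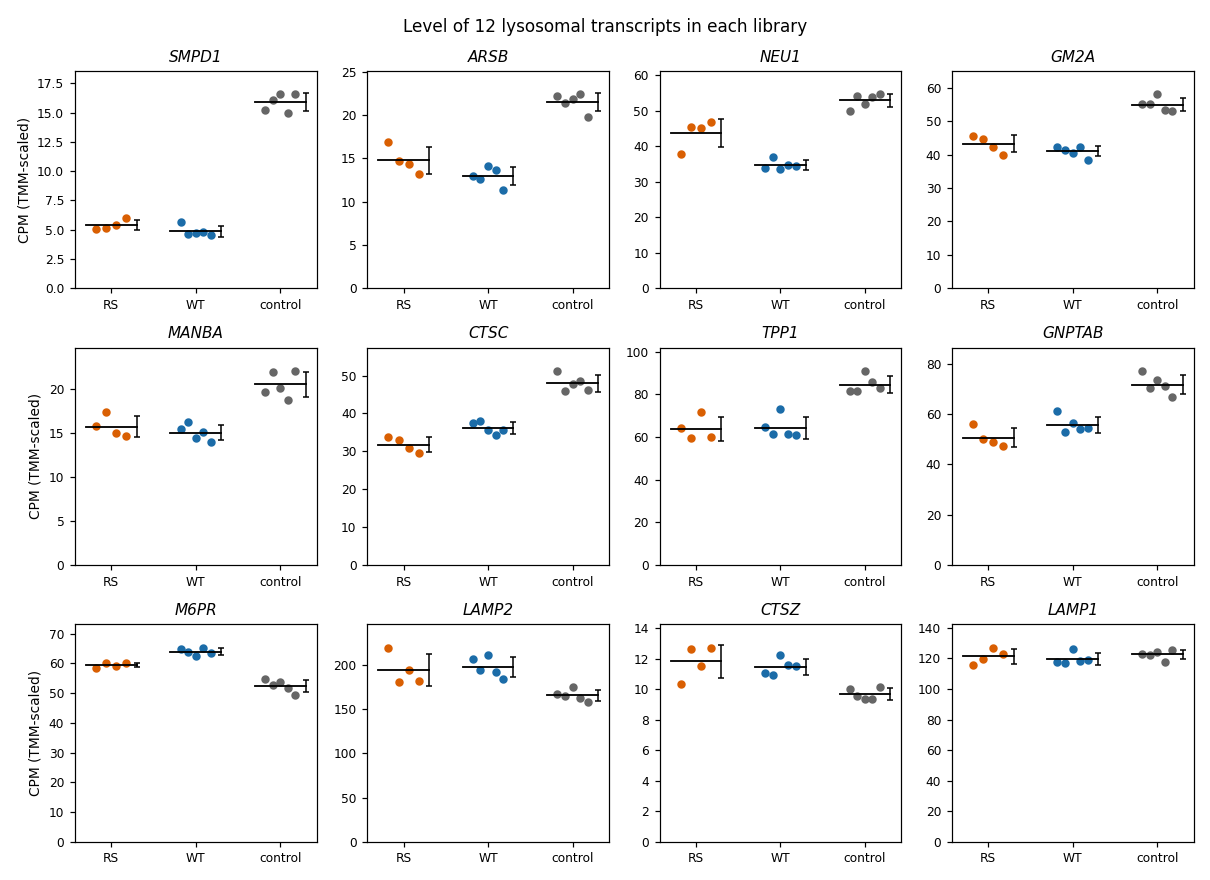
Level in CPM of 12 members in each library of miR-34a-RS (RS, 4 libraries), miR-34a-WT (WT, 5 libraries) and control (5 libraries), with the mean as a line and 1 SD as a bar. SMPD1 has 4.54 to 5.98 CPM in the miR-34a libraries and 14.99 to 16.6 CPM in control, while LAMP1, shown as a member that did not pass, has 116 to 127 CPM with miR-34a and 118 to 126 CPM in control.

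Of the 8 proteases 5 fell and 1 rose with each duplex. CTSC (chr11:88293592-88337787), a dipeptidyl peptidase that activates serine proteases of immune cells, had 33.8, 32.98, 30.9 and 29.5 CPM in the miR-34a-RS libraries, 37.4, 37.9, 35.6, 34.2 and 35.7 CPM in the miR-34a-WT libraries and 51.2, 45.9, 47.7, 48.7 and 46.1 CPM in the control libraries. The 3 groups did not overlap, with control highest and miR-34a-RS lowest. As a log2 fold change over control it stood at -0.59 (SE 0.05) with miR-34a-RS and -0.41 (SE 0.05) with miR-34a-WT (edgeR quasi-likelihood F test, Benjamini-Hochberg adjusted p = 1.97e-09 and 2.73e-07). TPP1, the tripeptidyl peptidase that is deficient in a form of neuronal ceroid lipofuscinosis, had 64.1, 59.6, 71.8 and 59.7 CPM in the miR-34a-RS libraries, 64.5, 61.4, 73.01, 61.2 and 60.97 CPM in the miR-34a-WT libraries and 81.5, 81.4, 90.9, 85.5 and 83.2 CPM in the control libraries. Every miR-34a library was below every control library, and replicate 3 was the highest of each of the 3 groups. On the log2 scale it stood, over control, at -0.40 (SE 0.06) with miR-34a-RS and -0.40 (SE 0.06) with miR-34a-WT.

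CTSA, a carboxypeptidase that also protects NEU1 and β-galactosidase, had 54.8, 54.2, 65.1 and 60.4 CPM in the miR-34a-RS libraries, 54.05, 53.1, 60.8, 58.4 and 60.1 CPM in the miR-34a-WT libraries and 67.3, 68.7, 74.5, 72.8 and 73.9 CPM in the control libraries. CTSB, a cysteine protease, had 51.6, 56.7, 56.5 and 57.01 CPM in the miR-34a-RS libraries, 53.5, 58.5, 57.3, 54.6 and 55.2 CPM in the miR-34a-WT libraries and 64.8, 70.6, 69.04, 66.6 and 69.9 CPM in the control libraries. Both lay below every control library in all 9 miR-34a libraries. The log2 fold change over control was -0.28 (SE 0.06) with miR-34a-RS and -0.32 (SE 0.05) with miR-34a-WT for CTSA, and -0.30 (SE 0.05) with miR-34a-RS and -0.29 (SE 0.04) with miR-34a-WT for CTSB. CTSD, the main aspartic protease of the lysosome, had 53.98, 59.3, 63.9 and 56.8 CPM in the miR-34a-RS libraries, 51.7, 55.4, 58.7, 62.5 and 60.6 CPM in the miR-34a-WT libraries and 56.8, 64.5, 70.6, 67.5 and 79.5 CPM in the control libraries. Its groups overlapped, because control replicate 1 was as low as the miR-34a libraries. For CTSD the log2 fold change over control was -0.21 (SE 0.07) with miR-34a-RS and -0.23 (SE 0.07) with miR-34a-WT; with miR-34a-RS the call was lost without control 3 or 5 or miR-34a-RS 1 or 5, at -0.18 to -0.14, and with miR-34a-WT it was lost without control 5, at -0.16. With the GC and length trends removed it was -0.07 with miR-34a-WT and not called (edgeR, adjusted p = 0.15).

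CTSZ, a carboxypeptidase, went the other way, with 10.4, 12.6, 11.5 and 12.7 CPM in the miR-34a-RS libraries, 11.03, 10.9, 12.3, 11.6 and 11.5 CPM in the miR-34a-WT libraries and 10.02, 9.56, 9.33, 9.38 and 10.2 CPM in the control libraries. All 9 miR-34a libraries were above all 5 control libraries, by a small margin. Its log2 fold change over control was 0.29 (SE 0.07) with miR-34a-RS and 0.25 (SE 0.07) with miR-34a-WT. Over the 6 proteases called, the adjusted p ran from 1.97e-09 to 0.029 with miR-34a-RS and from 2.73e-07 to 0.0106 with miR-34a-WT in edgeR's test with Benjamini-Hochberg adjustment. CTSF and CTSL, both cysteine proteases, did not pass, at -0.03 and -0.07 with miR-34a-RS and 0.01 and -0.06 with miR-34a-WT on the log2 scale. CTSA shares 200 bases of exon with PLTP on the opposite strand, which averaged 29.1 CPM and was higher with miR-34a, and strand was not recorded in these libraries, so the value of CTSA is uncertain to that extent.

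The 8 enzymes that degrade glycosaminoglycans were divided, with 2 lower and 1 higher with miR-34a-RS and 2 lower and 2 higher with miR-34a-WT. ARSB (chr5:78777209-78986087) removes sulfate from dermatan and chondroitin sulfate and is deficient in Maroteaux-Lamy syndrome. It had 16.8, 14.7, 14.4 and 13.2 CPM in the miR-34a-RS libraries, 13.01, 12.6, 14.1, 13.6 and 11.4 CPM in the miR-34a-WT libraries and 22.2, 21.4, 21.9, 22.4 and 19.8 CPM in the control libraries. The miR-34a libraries were all below the control libraries, and the miR-34a-RS and miR-34a-WT ranges overlapped. Set against control, it stood on the log2 scale at -0.55 (SE 0.07) with miR-34a-RS and -0.74 (SE 0.07) with miR-34a-WT (edgeR quasi-likelihood F test, Benjamini-Hochberg adjusted p = 8.79e-07 and 2.25e-09). GUSB, the β-glucuronidase, had 57.5, 62.2, 63.02 and 62.5 CPM in the miR-34a-RS libraries, 65.8, 63.6, 63.7, 67.7 and 66.1 CPM in the miR-34a-WT libraries and 68.8, 68.8, 67.2, 74.3 and 80.3 CPM in the control libraries. It was lower than every control library in all 4 miR-34a-RS libraries, while the miR-34a-WT range reached into that of control. For GUSB the log2 fold change was -0.23 (SE 0.05) with miR-34a-RS and -0.13 (SE 0.05) with miR-34a-WT, and the call with miR-34a-WT was lost when any 1 of 6 libraries was left out (control 4 and 5, miR-34a-RS 5, miR-34a-WT 2, 3 and 4), at -0.13 to -0.09. That call was also lost with DESeq2's size factors or no filter on low counts, both at -0.12, and with the GC and length trends removed, at -0.02 (edgeR, adjusted p = 0.673). The table also lists 21 GUSB pseudogenes, 2 of them tested and the most abundant at a mean of 16.4 CPM, so reads of GUSB may be split among near copies.

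SGSH, the sulfatase that acts on heparan sulfate, had 49.3, 53.7, 61.8 and 58.1 CPM in the miR-34a-RS libraries, 50.7, 54.5, 59.4, 59.3 and 60.4 CPM in the miR-34a-WT libraries and 44.9, 50.1, 44.2, 47.4 and 51.2 CPM in the control libraries. The miR-34a values were mostly higher, and the groups overlapped at the low end of the miR-34a ranges. Over control, its log2 fold change was 0.23 (SE 0.06) with miR-34a-RS and 0.26 (SE 0.06) with miR-34a-WT (edgeR quasi-likelihood F test, Benjamini-Hochberg adjusted p = 0.00708 and 0.00136), and its 3′ UTR holds a 7mer-m8 match. GALNS, a sulfatase of keratan and chondroitin sulfate, had 26.1, 26.2, 31.6 and 30.1 CPM in the miR-34a-RS libraries, 28.1, 27.7, 32, 30 and 32.9 CPM in the miR-34a-WT libraries and 23.9, 25.3, 25.02, 26.4 and 28.7 CPM in the control libraries. Its ranges overlapped as well, and its log2 fold change was 0.14 (SE 0.07) with miR-34a-RS and 0.22 (SE 0.06) with miR-34a-WT, with an adjusted p of 0.109 and 0.00711 in edgeR's test. IDS, IDUA, NAGLU and HGSNAT, which act on heparan sulfate, did not pass, with log2 fold changes from -0.01 to 0.12 with miR-34a-RS and from -0.06 to 0.09 with miR-34a-WT. IDS, which holds an 8mer match, stood at 0.12 (SE 0.09) with miR-34a-RS and 0.09 (SE 0.09) with miR-34a-WT, and at a mean of 5.76 ± 0.750 CPM in control. It shares 1529 bases of exon with AC244197.3 on the same strand, which averaged 1.11 CPM and stood at -0.05 with miR-34a-RS and -0.4 with miR-34a-WT.

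Of the 6 hydrolases of glycogen, glycoproteins, lipids and acyl proteins, 3 fell and none rose with miR-34a-RS, and 2 fell and 1 rose with miR-34a-WT. MANBA, the β-mannosidase, had 15.8, 17.4, 15.1 and 14.7 CPM in the miR-34a-RS libraries, 15.5, 16.2, 14.4, 15.1 and 14.01 CPM in the miR-34a-WT libraries and 19.7, 21.98, 20.1, 18.8 and 22.1 CPM in the control libraries. MAN2B1, the α-mannosidase that acts on the same oligosaccharides, had 37.3, 39.9, 43.3 and 40.5 CPM in the miR-34a-RS libraries, 40.5, 37.3, 39.8, 41.97 and 39.5 CPM in the miR-34a-WT libraries and 45.02, 49.1, 50.6, 50.4 and 52.5 CPM in the control libraries. All miR-34a libraries were below all control libraries for both. The log2 fold change over control was -0.39 (SE 0.07) with miR-34a-RS and -0.45 (SE 0.06) with miR-34a-WT for MANBA, and -0.30 (SE 0.05) with miR-34a-RS and -0.31 (SE 0.05) with miR-34a-WT for MAN2B1 (edgeR quasi-likelihood F test, Benjamini-Hochberg adjusted p from 4.79e-05 to 9.88e-05 with miR-34a-RS and from 2.33e-06 to 1.88e-05 with miR-34a-WT).

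PPT1, the thioesterase that removes palmitate from proteins, had 195, 195, 193 and 185 CPM in the miR-34a-RS libraries, 206, 211, 208, 199.6 and 194 CPM in the miR-34a-WT libraries and 218, 199.7, 212, 207 and 206 CPM in the control libraries. The miR-34a-RS libraries were all just below the control libraries, and the miR-34a-WT libraries overlapped them. Over control, its log2 fold change was -0.12 (SE 0.04) with miR-34a-RS and -0.03 (SE 0.04) with miR-34a-WT, with an adjusted p of 0.0316 and 0.531 in edgeR's test. The call with miR-34a-RS was lost when any 1 of 7 libraries was left out (control 1, 3, 4 and 5, miR-34a-RS 3 and 5, miR-34a-WT 4), at -0.12 to -0.08. It was also lost with DESeq2's size factors, upper-quartile factors, no filter on low counts, the 2 groups alone, and the GC and length trends removed together with the block, at -0.11 to -0.08. PPT1 also shares 1189 bases of exon with CAP1 on the opposite strand, which averaged 149 CPM and stood at -1.0 with miR-34a-RS and -0.84 with miR-34a-WT on the log2 scale, so reads of the pair could not be told apart there. FUCA1, the α-fucosidase, had 38.1, 41.5, 37.98 and 38.1 CPM in the miR-34a-RS libraries, 40.9, 42.4, 40.2, 38.3 and 40.2 CPM in the miR-34a-WT libraries and 36.2, 36.8, 37.5, 35.5 and 36.3 CPM in the control libraries. Every miR-34a library was above every control library, by less than 1 CPM at the nearest. For FUCA1 the log2 fold change was 0.09 (SE 0.05) with miR-34a-RS and 0.15 (SE 0.04) with miR-34a-WT, with an adjusted p of 0.135 and 0.00974 in edgeR's test. GAA, which degrades glycogen, and LIPA, the acid lipase, did not pass, at 0.04 and -0.03 with miR-34a-RS and 0.01 and -0.03 with miR-34a-WT.

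Of the membrane proteins and cholesterol transporters, 1 of 8 was called in each comparison with control. LAMP2, an abundant glycoprotein of the lysosomal membrane and a receptor in chaperone-mediated autophagy, had 219.6, 181, 194 and 182 CPM in the miR-34a-RS libraries, 207, 194, 211, 192 and 184 CPM in the miR-34a-WT libraries and 167, 165, 175, 163 and 158 CPM in the control libraries. All 9 miR-34a libraries were above all 5 control libraries. As a log2 fold change over control it stood at 0.23 (SE 0.05) with miR-34a-RS and 0.25 (SE 0.05) with miR-34a-WT (edgeR quasi-likelihood F test, Benjamini-Hochberg adjusted p = 0.00185 and 0.000303). Its partner LAMP1 had 116 to 127 CPM with miR-34a-RS, 117 to 126 CPM with miR-34a-WT and 118 to 126 CPM in control, and these ranges overlapped. For LAMP1 the log2 fold change was -0.01 (SE 0.04) with miR-34a-RS, with a 95% interval of -0.10 to 0.07, and -0.04 (SE 0.04) with miR-34a-WT, with an interval of -0.12 to 0.05. SCARB2, the carrier of glucocerebrosidase, and the tetraspanin CD63 stood at -0.01 and 0.03 with miR-34a-RS and at 0.01 and -0.01 with miR-34a-WT. NPC1 and NPC2, which pass cholesterol out of the lysosome, stood at -0.09 and -0.04 with miR-34a-RS and -0.08 and -0.07 with miR-34a-WT, and the cation channel MCOLN1 at -0.06 with miR-34a-RS and -0.11 with miR-34a-WT. CLN3, at 1.38 ± 0.449 CPM in control, was measured least precisely, at -0.18 (SE 0.20) with miR-34a-RS and -0.18 (SE 0.19) with miR-34a-WT, and 2480 bases of its exons are shared with a readthrough transcript.

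All 4 sorting genes were called with miR-34a-WT, and 3 of them with miR-34a-RS. GNPTAB, the α and β subunits of the phosphotransferase that starts the mannose 6-phosphate tag, had 56.2, 49.9, 49.1 and 47.2 CPM in the miR-34a-RS libraries, 61.1, 52.9, 56.3, 54 and 54.4 CPM in the miR-34a-WT libraries and 77.1, 70.2, 73.4, 71.01 and 66.6 CPM in the control libraries. The miR-34a libraries were all below the control libraries, and the miR-34a-RS values were mostly the lower of the miR-34a groups. On the log2 scale it stood, over control, at -0.50 (SE 0.06) with miR-34a-RS and -0.36 (SE 0.05) with miR-34a-WT (edgeR quasi-likelihood F test, Benjamini-Hochberg adjusted p = 1.12e-07 and 4.45e-06). GNPTG, the γ subunit of the same enzyme, had 18.9, 20.5, 22.02 and 21.3 CPM in the miR-34a-RS libraries, 18.97, 19.9, 21.9, 20.9 and 21.1 CPM in the miR-34a-WT libraries and 21.8, 22.5, 23, 21.7 and 26.5 CPM in the control libraries. The ranges overlapped slightly, and control replicate 5 was the highest library of all. For GNPTG the log2 fold change was -0.15 (SE 0.06) with miR-34a-RS and -0.16 (SE 0.06) with miR-34a-WT, with an adjusted p of 0.0666 and 0.0356 in edgeR's test. Its call with miR-34a-WT was lost when any 1 of 6 libraries was left out (control 3 and 5, miR-34a-RS 5, miR-34a-WT 1, 2 and 4), at -0.15 to -0.11. That call was also lost with DESeq2's test or size factors or no filter on low counts, all at -0.15, and with the GC and length trends removed, at -0.04 (edgeR, adjusted p = 0.436). Of the exons of GNPTG 909 bases overlap UNKL on the opposite strand, which averaged 34.9 CPM and stood at 0.4 with either duplex on the log2 scale. Reads of the pair could not be told apart there.

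The receptors moved in opposite directions. IGF2R, the large cation-independent receptor of the tag, which also binds an insulin-like growth factor, had 219, 212, 213 and 229 CPM in the miR-34a-RS libraries, 235, 207, 217, 231 and 239 CPM in the miR-34a-WT libraries and 251, 269, 229, 255 and 249 CPM in the control libraries. All 4 miR-34a-RS libraries were below the control libraries, with replicate 5 close to the lowest of them, and the miR-34a-WT range overlapped that of control. Its log2 fold change was -0.20 (SE 0.05) with miR-34a-RS and -0.15 (SE 0.05) with miR-34a-WT, with an adjusted p of 0.0027 and 0.0134 in edgeR's test, and the call with miR-34a-WT was lost without control 2 or miR-34a-WT 2, at -0.12, and with the GC and length trends removed, at -0.09. M6PR, the smaller cation-dependent receptor, had 58.5, 60.1, 58.99 and 60.1 CPM in the miR-34a-RS libraries, 64.7, 63.9, 62.5, 65.2 and 63.3 CPM in the miR-34a-WT libraries and 54.9, 52.6, 53.6, 51.6 and 49.3 CPM in the control libraries. Here the 3 groups did not overlap, with miR-34a-WT highest and control lowest. For M6PR the log2 fold change was 0.18 (SE 0.04) with miR-34a-RS and 0.29 (SE 0.04) with miR-34a-WT, with an adjusted p of 0.00193 and 3.47e-06 in edgeR's test. M6PR shares 1105 bases of exon with PHC1 on the opposite strand, which stood at 0.01 with miR-34a-RS and 0.00 with miR-34a-WT on the log2 scale.

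The comparison of miR-34a-RS with miR-34a-WT sets the duplex that lacks bases at guide positions 13 and 14 beside the unmodified duplex. The amount of guide in the cells was not examined here. In the main fit, which has no replicate block, NEU1 was the only member called, and more were called with the block, as given below. NEU1 was higher with miR-34a-RS, at 43.7 ± 4.05 CPM (SD, n = 4) against 34.7 ± 1.32 CPM (SD, n = 5) with miR-34a-WT. The log2 fold change was 0.33 (SE 0.06), with a 95% interval of 0.22 to 0.45 (edgeR quasi-likelihood F test, Benjamini-Hochberg adjusted p = 0.00134). The transcript was thus 17.4% below control with miR-34a-RS and 34.4% below control with miR-34a-WT. Without the block 1.56% of all genes were called, 1.03% higher and 0.535% lower, so 1 of 44 members, or 2.27%, is close to that share. NEU1 is 1 of the 2 members whose match has AGCT within range, and its spacing of 4 bases is the shorter. IGF2R, the other, did not pass, at -0.05 (SE 0.05) with an interval of -0.16 to 0.05. Over all tested genes, 15 of 270 with such a site (5.56%) were higher with miR-34a-RS and 2 were lower, against 58 (2.38%) higher and 17 lower of 2436 genes with an 8mer or 7mer-m8 match but no such site.

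SMPD1 did not pass either, at 0.15 (SE 0.09) with an interval of -0.02 to 0.33, so a difference of up to 0.33 on the log2 scale remains within its error. ARSB stood at 0.19 (SE 0.07), with an interval of 0.04 to 0.34 and an adjusted p of 0.246 in edgeR's test, and CTSC, the lowest of the list, at -0.19 (SE 0.05), with an interval of -0.29 to -0.08 and an adjusted p of 0.0835. The 43 members that did not pass lay between -0.19 and 0.19. Besides NEU1, the libraries of miR-34a-RS and miR-34a-WT did not overlap for CTSC, GUSB and M6PR, all lower with miR-34a-RS. The 4 are 9.09% of members, and the groups did not overlap for 4.81% of all tested genes. Same-numbered libraries of the miR-34a groups deviated together (r = 0.373 to 0.716 over 11259 genes in 4 pairs), a pairing that the main fit leaves out. With the replicate number as a block in a fit of these groups alone, 1094 of the 18321 genes were higher and 1244 lower with miR-34a-RS. Under the block 2 members were higher, NEU1 at 0.34 (adjusted p = 8.62e-08) and ARSB at 0.21 (adjusted p = 0.0126), and 3 were lower, CTSC at -0.20 (adjusted p = 0.000445), GNPTAB at -0.15 (adjusted p = 0.00372) and PPT1 at -0.09 (adjusted p = 0.0307), in the edgeR test. Without miR-34a-RS 1 and with no block, CTSC and GNPTAB were called lower and NEU1 stayed higher. With the dependence of each library on GC content and length of the 3′ UTR removed, 366 genes were higher and 448 lower, and members numbered 1 higher and 2 lower.

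**Figure D3:**
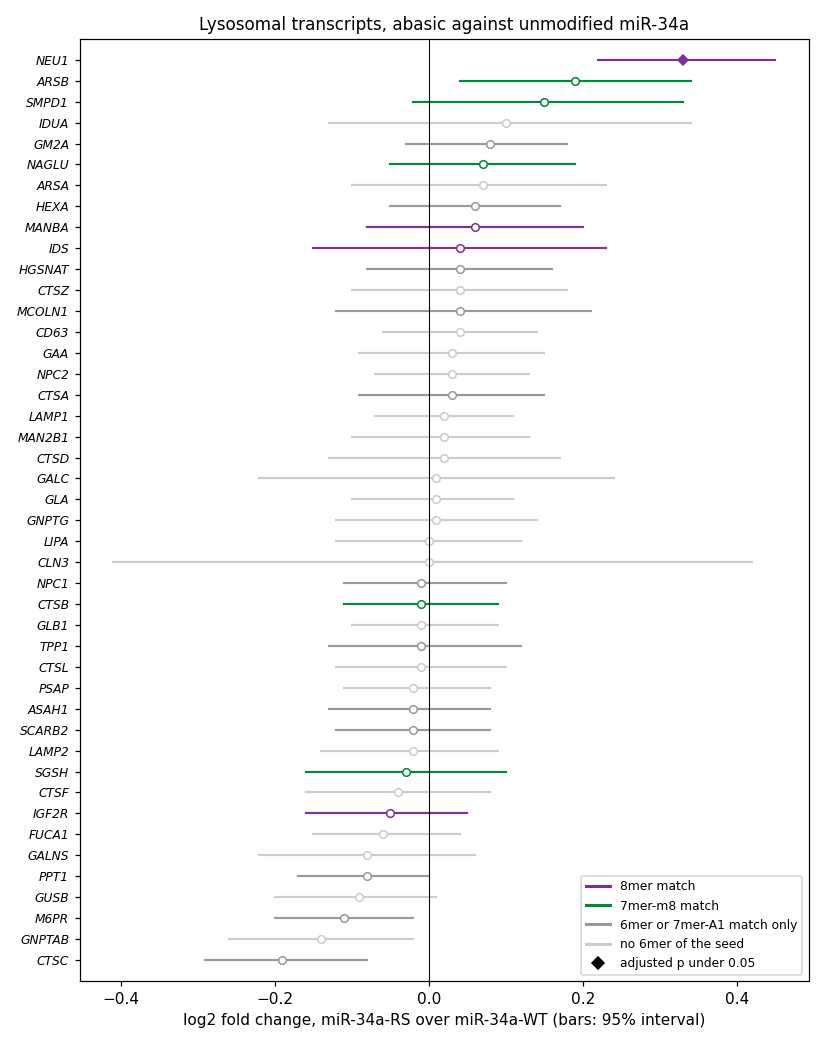
Log2 fold change of miR-34a-RS (4 libraries) over miR-34a-WT (5 libraries) for the 44 members in order of size, with 95% intervals and colours for the best seed match in the 3′ UTR. The fit has no replicate block. NEU1, at 0.33 with an interval of 0.22 to 0.45, is the member past the threshold in it, and the members next to NEU1, ARSB and SMPD1, hold 7mer-m8 matches.

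Members were then set out by their best seed match. Of the 9 members with an 8mer or 7mer-m8 match 6 were lower, 1 was higher and 2 did not pass, with miR-34a-RS and with miR-34a-WT alike. Among all genes with such a match, 39.1% were lower with miR-34a-RS and 43.4% with miR-34a-WT. The match itself was carried by 20.5% of members and by 19.8% of the 13653 tested genes with an annotated 3′ UTR. The 6 were SMPD1, NEU1, ARSB, MANBA, CTSB and IGF2R, SGSH was the higher one, and IDS and NAGLU did not pass. Of 12 members whose best match was a 6mer or 7mer-A1 (ACTGCC or ACTGCCA), 6 were lower and 1 higher with miR-34a-RS, and 5 were lower and 1 higher with miR-34a-WT, beside 28.3% and 29.5% of genes lower. Of 23 members with no 6mer, 6 were lower and 2 higher with miR-34a-RS, and 7 were lower and 4 higher with miR-34a-WT, beside 14.1% and 17.2% of 8348 genes lower. With both duplexes CTSC, TPP1, GM2A, HEXA and CTSA thus fell with a 6mer or 7mer-A1 match only. PSAP, ARSA, CTSD, MAN2B1, GNPTAB and GUSB fell with both and held no 6mer. PPT1, with a 6mer, fell with miR-34a-RS alone, and GNPTG, with none, fell with miR-34a-WT alone. These matches are letters in 1 transcript per gene and were not tested for binding.

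The promoters of members were searched for the E-box of the CLEAR motif, the sequence through which TFEB is known to act on lysosomal genes. In the RefSeq table (GRCh38.p14, 250 bases before to 50 after each gene's start) 34 of the 44 were listed; HEXA, ARSA, ASAH1, PSAP, CTSB, NAGLU, SGSH, HGSNAT, MANBA and LAMP2 were not used here. TCACGTG on either strand, where a match on the other strand reads CACGTGA and may share 6 bases with it, was present in 11 of the 34 (32.4%), against 3.82% of 27305 promoters in the table and 5.73% of 11481 promoters of tested genes. Windows of 30 bases, 5′ to 3′ on the gene's strand with the motif in capitals, are printed for a member called between the duplexes, 2 that fell, 1 that rose and 1 that did not pass.
NEU1, chr6:31862930-31862959, minus strand: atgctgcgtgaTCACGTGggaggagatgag
CTSD, chr11:1763956-1763985, minus strand: ccggccgcgccCACGTGAccggtccgggtg
CTSA, chr20:45891281-45891310, plus strand: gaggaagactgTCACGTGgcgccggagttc
GALNS, chr16:88857104-88857133, minus strand: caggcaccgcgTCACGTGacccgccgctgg
LAMP1, chr13:113297035-113297064, plus strand: accaggccgggTCACGTGggtccagggtca
The other members with the motif were IGF2R, CTSF, GNPTG, CLN3, GAA and MCOLN1. Of the 11 with it, 4 were lower, 0 higher and 7 not passed with miR-34a-RS, and 5 were lower, 1 higher and 5 not passed with miR-34a-WT. Of the 23 without it, 9 were lower, 2 higher and 12 not passed with miR-34a-RS, and 8 were lower, 3 higher and 12 not passed with miR-34a-WT. The median log2 fold change was -0.15 with the motif in both comparisons, and -0.04 with miR-34a-RS and -0.06 with miR-34a-WT without it. Calls and medians of all tested genes with and without the motif were not worked out. The members' values therefore have no background beside them, and a difference by motif was not tested. A match is a description of letters and says nothing of what bound there.

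Levels per kilobase of exon spanned a wide range. In control libraries PSAP stood highest, at 121 ± 5.07 CPM per kilobase (mean ± SD, n = 5), above GLA at 63.4 ± 1.76, CD63 at 48.8 ± 0.636 and PPT1 at 40.97 ± 1.33, and the ranges of these 4 did not overlap their neighbours in the order. From LAMP2, at 29.99 ± 1.18, to GLB1, at 17.2 ± 0.541, each range overlapped the next. SMPD1 was 29 of 44 in control, at 5.78 ± 0.272, with a level per kilobase of 1.96 ± 0.153 with miR-34a-RS and 1.77 ± 0.171 with miR-34a-WT. The lowest were IDS at 0.620 ± 0.0807, GALC at 0.596 ± 0.0569 and CLN3 at 0.140 ± 0.0455, of which IDS and GALC overlapped. PSAP kept the highest level with both duplexes, at 106 ± 5.69 with miR-34a-RS and 107 ± 4.81 with miR-34a-WT. Exon length was taken as the union of all annotated exons, and this length can exceed that of the transcript in use. It includes bases shared with other genes on the same strand, as in CLN3 (2480 bases), IDS (1529 bases) and CTSD (1304 bases). The effect of such sharing on these levels was not tested.

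**Figure D4:**
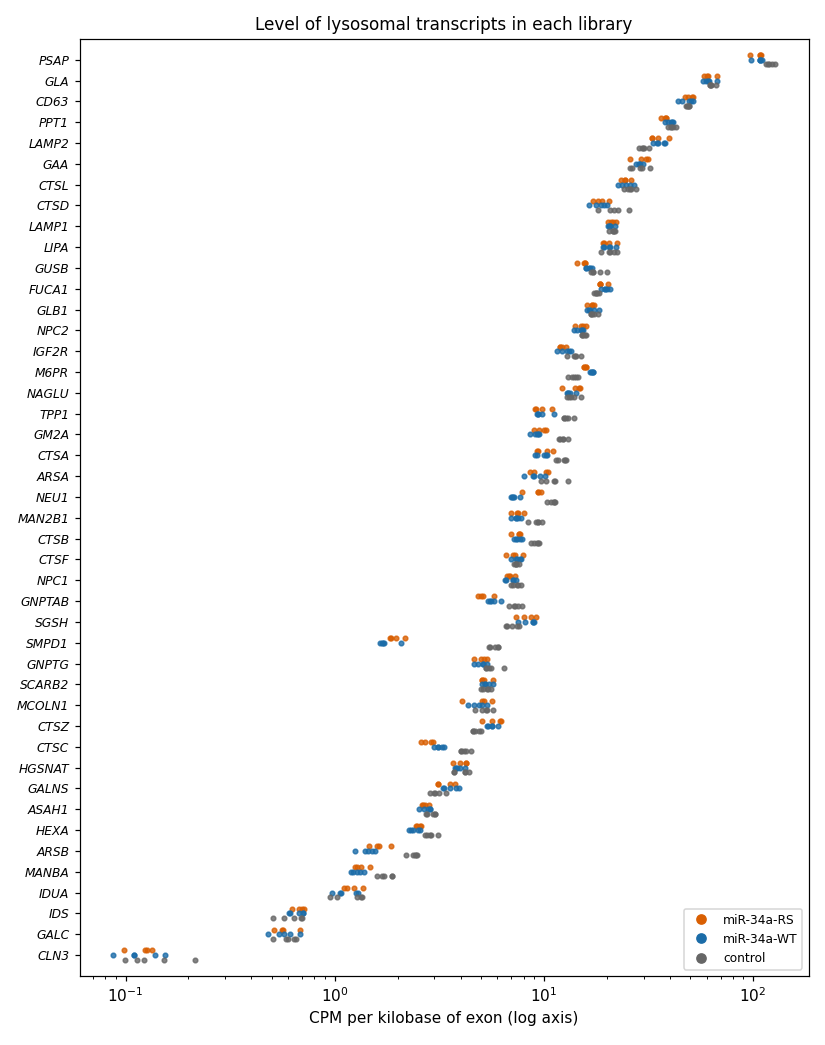
Level of the 44 members in CPM per kilobase of exon on a log axis, 1 point per library for miR-34a-RS, miR-34a-WT and control, ordered by the control mean. PSAP leads at 121 in control and CLN3 closes at 0.140, and the miR-34a points of SMPD1 stand apart from its control points at 5.78.

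A further 121 lysosomal genes outside the list, of which 117 were tested, gave a mixed picture. With miR-34a-RS 33 of them were lower and 22 higher, and with miR-34a-WT 34 were lower and 32 higher, with medians of -0.03 and -0.02 on the log2 scale. The shares lower were 28.2% with miR-34a-RS and 29.1% with miR-34a-WT, beside 18.4% and 21.3% of all tested genes. Called either way were 47.0% and 56.4%, beside 34.6% and 40.2% of all tested genes and 50% and 54.5% of members. Among 31 other enzymes and luminal proteins 10 were lower and 5 higher with miR-34a-RS, and 11 were lower and 5 higher with miR-34a-WT. GRN, which encodes progranulin, stood at -1.66 (SE 0.06) with miR-34a-RS and -1.60 (SE 0.06) with miR-34a-WT, and NAGPA, which uncovers the mannose 6-phosphate tag after GNPTAB and GNPTG have added its precursor, at -1.20 (SE 0.07) with miR-34a-RS and -1.31 (SE 0.07) with miR-34a-WT. The means of GRN were 66.5 ± 4.35 CPM with miR-34a-RS (SD, n = 4), 69.1 ± 2.02 CPM with miR-34a-WT (SD, n = 5) and 209.7 ± 18.5 CPM in control (SD, n = 5). Among 29 other membrane proteins 8 were lower and 6 higher with miR-34a-RS and 9 lower and 9 higher with miR-34a-WT. LAMP3, a relative of LAMP1 and LAMP2, stood at -1.02 (SE 0.11) with miR-34a-RS and -0.86 (SE 0.10) with miR-34a-WT, and TMEM97, a partner of NPC1, at -0.27 (SE 0.05) with miR-34a-RS and -0.41 (SE 0.04) with miR-34a-WT.

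Of 17 V-ATPase subunits, parts of the pump that acidifies the lysosome, 5 were lower and 3 higher with miR-34a-RS, and 3 were lower and 8 higher with miR-34a-WT. ATP6V1A, the catalytic subunit, stood at 0.56 (SE 0.05) with miR-34a-RS and 0.52 (SE 0.05) with miR-34a-WT, and ATP6V0E1, a membrane subunit, at -0.65 (SE 0.05) with miR-34a-RS and -0.52 (SE 0.05) with miR-34a-WT. Of 22 genes of the TFEB family and its regulators 4 were lower and 5 higher in each comparison. PPP3CB, a catalytic subunit of calcineurin, the phosphatase of TFEB, stood at 0.63 (SE 0.04) with miR-34a-RS and 0.67 (SE 0.04) with miR-34a-WT, and RRAGD, a Rag GTPase that recruits TFEB, at -0.64 (SE 0.06) with miR-34a-RS and -0.40 (SE 0.06) with miR-34a-WT. RRAGD was the only one of the 117 called between the duplexes in the main fit, without a replicate block, at -0.24 (SE 0.06) in miR-34a-RS over miR-34a-WT. RRAGD lost that call when any 1 of 9 libraries was left out (control 2, 3 and 4, miR-34a-RS 3 and 5, miR-34a-WT 1, 2, 3 and 4), at -0.24 to -0.20. It was also lost with upper-quartile factors, at -0.22, and in a fit of the 2 groups alone, at -0.23. Of 18 sorting adaptors 6 were lower and 3 higher with miR-34a-RS, and 7 were lower and 5 higher with miR-34a-WT. SORL1, a sorting receptor, stood at -0.68 (SE 0.06) with miR-34a-RS and -0.56 (SE 0.06) with miR-34a-WT, and VTI1B, a SNARE of late endosomes, at -0.58 (SE 0.05) with miR-34a-RS and -0.51 (SE 0.05) with miR-34a-WT. For these 10 genes, the 2 of each list with the smallest adjusted p in any comparison, it ran from 1.22e-16 to 5.75e-05 with miR-34a-RS and from 3.58e-17 to 1.92e-06 with miR-34a-WT in edgeR's test with Benjamini-Hochberg adjustment.

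**Figure D5:**
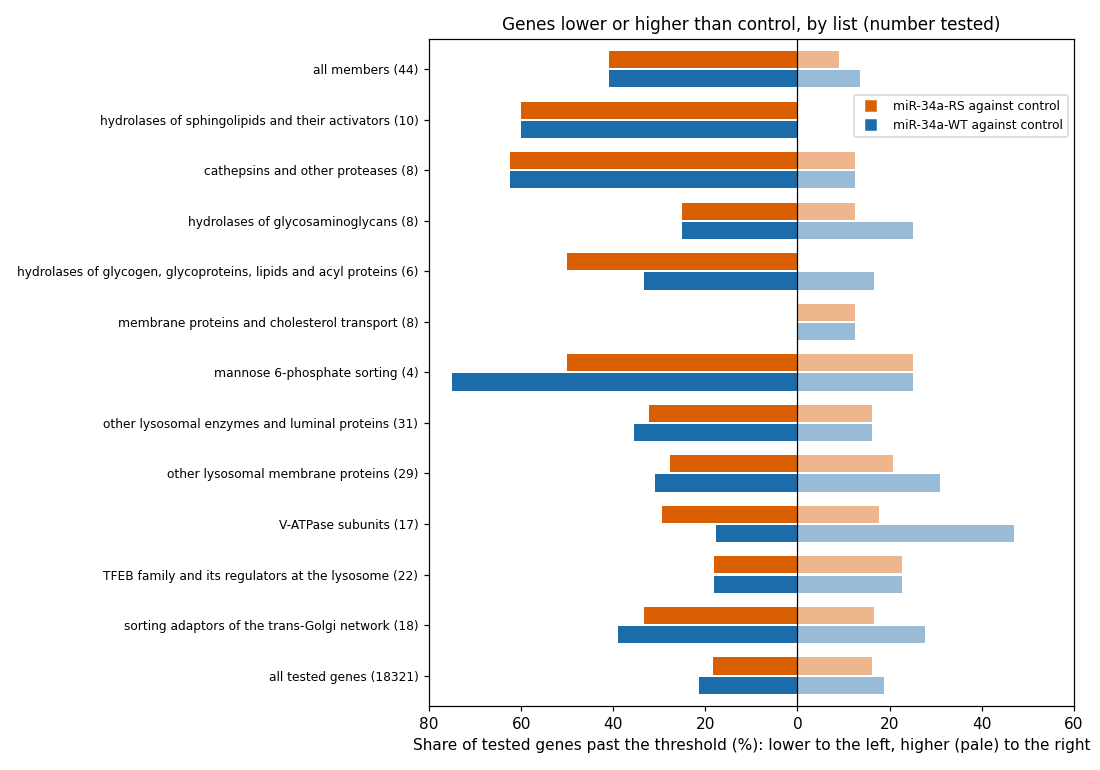
Share of tested genes lower (bars to the left) and higher (paler bars to the right) than control at an adjusted p under 0.05, for miR-34a-RS and miR-34a-WT, by list with the number tested. The members as a whole show 40.9% lower with each duplex, beside 18.4% and 21.3% of all tested genes, and the members that are membrane proteins or cholesterol transporters show 0% lower. The shares of all tested genes are not matched for level.

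Which members were called with miR-34a-WT changed when the dependence of each library on GC content and length of the 3′ UTR was removed, both at once. After that removal 15 members were lower and 9 higher with miR-34a-WT, and 3301 genes were lower and 4470 higher. CTSD, GNPTG, GUSB, IGF2R and PSAP lost their calls, and CTSF, CTSL, GAA, LIPA and NAGLU gained one. With miR-34a-RS that correction gave 19 members lower and 7 higher, against 18 and 4 without it. Calls that held while the log2 fold change moved by over 1.5 times were, with miR-34a-RS, HEXA to -0.12, GUSB to -0.15 and IGF2R to -0.13, and, with miR-34a-WT, ARSA to -0.16, CTSA to -0.18, HEXA to -0.16, GALNS to 0.38 and SGSH to 0.42. SMPD1, NEU1, ARSB, CTSC, GM2A, TPP1, CTSA, CTSB, MANBA, MAN2B1 and GNPTAB were called lower with both duplexes under every alternative and every left-out library.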

How the data were processed

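Total RNA of 14 HEK293T samples was made into cDNA libraries with a TruSeq v2 kit, per the labels' protocols, a kind of library in which transcript strand is not recorded. The authors deposited raw read counts per gene; the submitters' processing notes name GRCh38, STAR 2.7.11a, featureCounts, Subread 2.0.3 and edgeR 3.42.4. The annotation release and the strand setting are not given in the sources used here. Of 63140 genes, 21677 had no count.

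The 44 members, their roles and the other lists were chosen with earlier results of these data known, so their counts are descriptions. Members were matched through GENCODE 29 identifiers, which hold 99.71% of counts. The test was that of edgeR 4.0.16 (R 4.3.3) (TMM, filterByExpr by group, robust glmQLFit, glmQLFTest) in 1 fit of 3 group means over all 14 libraries, with Benjamini-Hochberg adjustment over 18321 genes and a threshold of 0.05. The common biological coefficient of variation was 0.0615, and the tests were tried on simulated data. No replicate pair agreed within sampling noise (chi-square per degree of freedom 2.72 to 14.28 over 26 pairs).

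Every member past the threshold in a comparison is given in each library, the others by values or range, and from each other list the 2 genes with the smallest adjusted p. Seed matches were searched in each gene's longest 3′ UTR (20 bases or more), for 13653 tested genes, with Python 3.11.15 and pandas 2.3.3; figures used matplotlib 3.10.9.

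Replicate numbers recur in all groups, and the labels do not say what they mark. Deviations from group means correlated in every same-numbered pair of miR-34a-RS and miR-34a-WT libraries (mean 0.555, against -0.134 for other pairs), so the numbers were taken as pairs there. With control they were not, because the pair of replicate 2 did not correlate (-0.002 with miR-34a-RS and -0.156 with miR-34a-WT). Same-numbered pairs with control still averaged 0.274 with miR-34a-RS and 0.291 with miR-34a-WT, against -0.07 and -0.071 for other pairs. The main fit has no block and leaves out any sharing by replicate number. The fit with the block is therefore given beside the results between the duplexes. Alternatives were DESeq2 1.42.0 as a test and its size factors, upper-quartile factors, no filter, a mean of at least 5 CPM, the 2 groups compared alone with and without a replicate block, removal of the dependence on GC content and length of the 3′ UTR (splines of 5 degrees of freedom per library) with and without the block, and each library left out.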

Additional observations from a re-analysis of the deposited data

Results flagged for a closer look

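In 10 of 132 groups of libraries, 1 library stood apart from the rest of its group by a gap past the 95% limit of Dixon's ratio, which chance passes in about 1 of 20 groups. Of these 10, 3 were miR-34a-RS replicate 1, which was lowest for PSAP, at 314 CPM with the nearest library at 348 CPM, for CTSB, at 51.6 against 56.5 CPM, and for GUSB, at 57.5 against 62.2 CPM. Replicate 1 of miR-34a-WT was lowest for PSAP as well, at 318 against 348 CPM, and highest for SMPD1, at 5.69 against 4.76 CPM. Without that library or any other left out in turn, SMPD1 kept its call.

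Replicate 3 of miR-34a-WT was highest for TPP1, at 73.0 against 64.5 CPM, and for LAMP1, at 126 against 119 CPM. Replicate 2 of miR-34a-RS was highest for FUCA1, at 41.5 against 38.1 CPM. In control, replicate 2 was highest for GLA, at 151 against 144 CPM, and replicate 5 for GNPTG, at 26.5 against 23.0 CPM. The call of GNPTG with miR-34a-WT was lost without control 5, at -0.11 on the log2 scale.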

How the results depend on the processing

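Between miR-34a-RS and control and between miR-34a-WT and control, no called member changed direction under any alternative. The members called lower numbered 15 to 18 with miR-34a-RS and 15 to 18 with miR-34a-WT over the 14 fits that left out 1 library. Removing the dependence on GC content and length of the 3′ UTR gave 7 members higher with miR-34a-RS, and adding the replicate block to it gave 10 higher with miR-34a-WT. Any 6mer of the seed, counted as a match in place of 8mer and 7mer-m8, was held by 21 members. Of these 12 (57.1%) were lower with miR-34a-RS and 11 (52.4%) with miR-34a-WT. Among the 5305 tested genes with such a match, 33.8% and 36.6% were lower. HEXA, with miR-34a-RS, was not called when that removal and the block were combined, at -0.08.

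Comparing miR-34a-RS with miR-34a-WT directly, the counts moved more. The replicate block gave 2 members higher and 3 lower, with 1094 genes higher and 1244 lower, and with the dependence also removed 2 members higher and 8 lower, with 932 genes higher and 1635 lower. That removal alone gave 1 member higher and 2 lower, with 366 and 448 genes. The DESeq2 test gave 1 member lower, CTSC, and 229 genes lower, and the fit of these groups alone gave 63 genes lower. Leaving out 1 library gave 0 to 2 members lower, 110 to 344 genes higher and 31 to 417 lower, the highest counts without miR-34a-RS 1. The cause was not tested. NEU1 was called higher in all of these fits. With control, the block changed no count of members by over 1.5 times.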
